A study of Mus musculus with 9 samples.

Results

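The 41 genes described here make the sugar donors, the lipid-linked oligosaccharide, the transfer enzyme and the first trimming enzymes of protein N-glycosylation. They were taken as a list of gene symbols, each measured by its single-symbol probe set with the highest mean over the 9 arrays of the series. The probe sets were thus chosen by measured intensity, and no difference between gates entered that choice. The probe set rule decided nothing for these genes, because each of the 41 had only 1 such probe set. The list of genes itself was chosen with earlier results of these data known. Shares of the list set beside those of all genes are therefore description only. All 41 were measured, among 22180 genes tested. Affymetrix arrays measured transcripts of CD11b+Ly6G- myeloid cells (cells with the myeloid integrin chain CD11b and without the neutrophil surface protein Ly6G) from the plantar hindpaw of 8-week-old male C57BL/6J mice, 24 h after an incisional wound. The cells were sorted by surface Ly6C into Ly6C low, medium and high gates, with 3 arrays each. Ly6C is abundant on classical monocytes newly arrived from the blood and scarce on many resident macrophages and dendritic cells. All gates share the strain, the sex, the age, the wound, the time and the CD11b+Ly6G- selection, and no unwounded skin is among the samples. The labels do not say whether the arrays of a gate came from separate animals, so the p-values reflect only how far these samples spread, and that spread may be technical.

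N-glycosylation attaches a preassembled oligosaccharide to asparagine residues of proteins as they enter the endoplasmic reticulum (ER). The oligosaccharide is built sugar by sugar on the lipid dolichol, first on the cytosolic and then on the lumenal face of the ER membrane, and the oligosaccharyltransferase complex moves it to the protein. Glucose and mannose residues are then removed in the ER and the Golgi apparatus, which opens the way to branched, sialylated glycans. Integrins, scavenger receptors, Fc receptors and lysosomal enzymes of macrophages and monocytes are N-glycoproteins.

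Ly6c2, which encodes Ly6C, had log2 intensities of 7.69, 7.90 and 9.40 in Ly6C low, 11.2 to 11.3 in medium and 12.1 to 12.5 in high, so the arrays follow the sort. Low array 3 was the nearest of its gate to the other gates for this transcript. It also had the highest summed neutrophil marker level of the low arrays (11.3, against 9.04 and 9.67 in log2 units of the summed intensities). Array 3 was the highest for this sum in the medium gate (11.1) and the high gate (10.2) too. Itgam, which encodes CD11b, was bright in every gate. Its low arrays, at 10.4 to 10.7, lay below its high arrays, at 10.9 to 11.1 (log2 difference -0.44, limma adjusted p = 0.0579). Array medians lay between 3.93 and 4.10 over all probe sets, and arrays of a gate correlated at 0.983 to 0.989 over genes, a description only since genes are not independent. Of the 41 genes, 39 were above the median of the genes tested on all 9 arrays, and the other 2, Alg6 and Mogs, were dim. Probe sets differ in brightness for reasons of design, so levels are compared between gates and never between genes. The number of arrays limits the precision.

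N-glycosylation transcripts were higher in Ly6C low cells than in Ly6C high cells for 5 of the 41 genes (12.2%) by limma at an adjusted p of at most 0.05, and 0 were lower. Over all genes tested, 3.35% were called higher and 2.32% lower. The 5 were Alg14, Alg2 and Alg3, which build the lipid-linked oligosaccharide, Rpn1, a subunit of the oligosaccharyltransferase, and Man1a, a mannosidase of the Golgi. The increases ran between 1.41-fold for Rpn1 and 2.62-fold for Alg3. In a sorted population, more cells of a type and more RNA per cell cannot be told apart. The median log2 difference of the 41 genes, low minus high, was 0.20, beside 0.01 for all genes. Of the 41 differences, 32 were positive (78.0%, beside 52.7% of all genes).

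At an unadjusted p under 0.05, 14 of the 41 genes were higher in Ly6C low than in Ly6C high (34.1%, beside 10.4% of all genes) and 1 was lower (2.44%, beside 7.46%). Every low array lay above every high array for 12 of the 41 (29.3%, against 11.4% of all genes) and below for 1 (2.44%, against 8.76%). The members are bright genes, and bright genes were called more often. When only genes above the array median on at least 3 arrays were fitted, 1506 of 11540 genes were called in either direction, and 7 of the 39 members left were called, 6 higher and 1 lower. With a filter at log2 of 6 or more on at least 3 arrays, 1305 of 6306 genes were called in either direction. Of the 32 members left, without Alg2, 7 were called, 6 higher and 1 lower, a share close to that of all genes. With only the low and high arrays in the fit, 1 of the 41 genes, Alg2, was called, beside 644 of all 22180 genes in either direction.

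**Figure D1:**
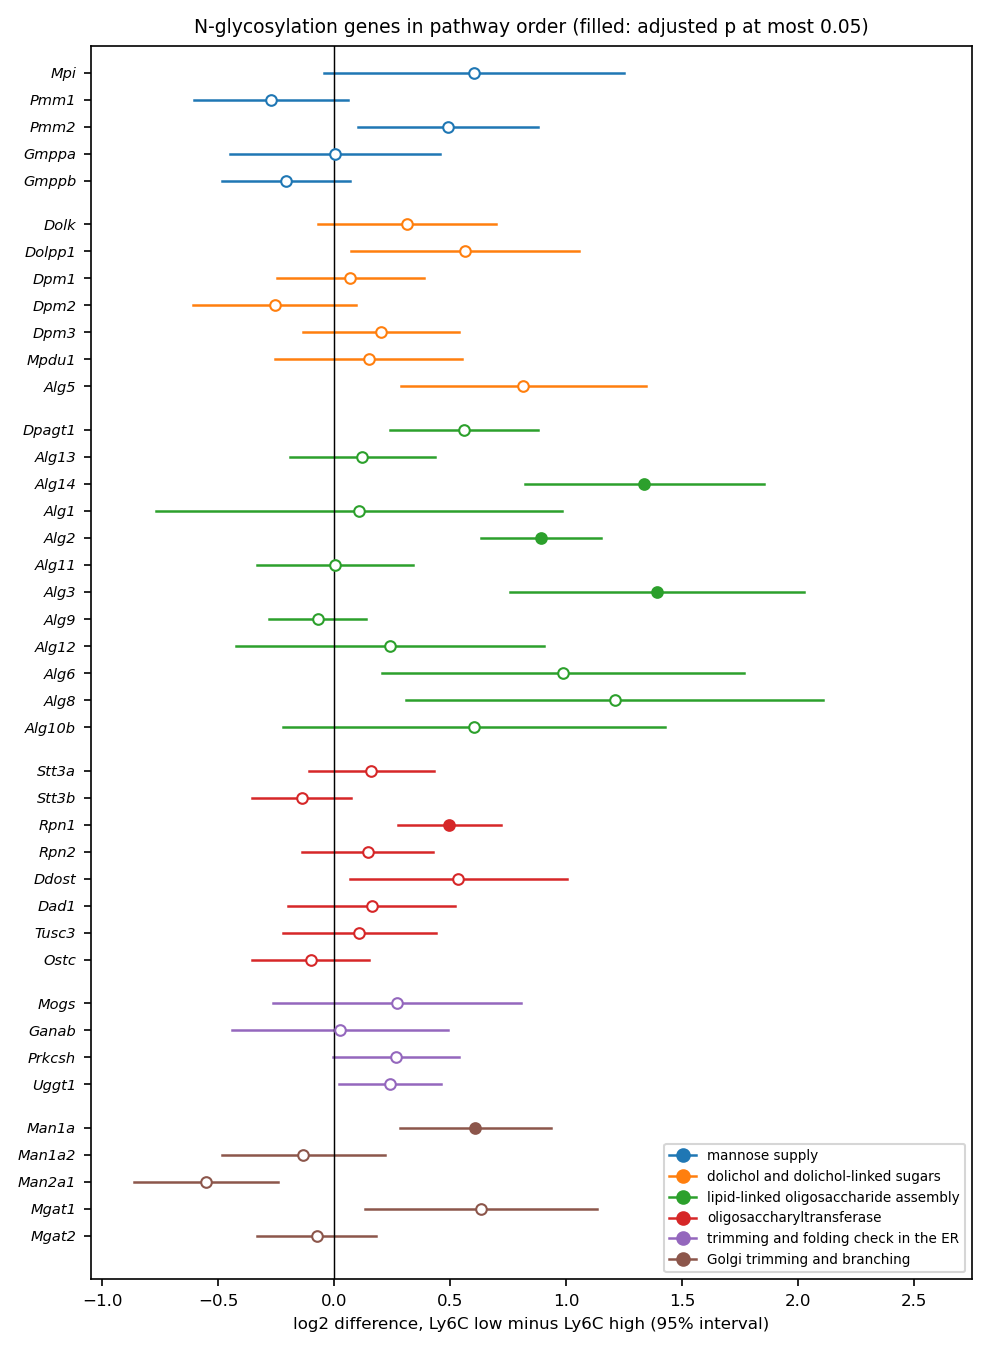
Log2 difference, Ly6C low minus Ly6C high, of the 41 N-glycosylation genes in pathway order, with 95% intervals from limma. Colours mark the role groups, and the 5 filled points are the genes with an adjusted p of at most 0.05. Points of the assembly group reach 1.39, whereas those of the other groups lie between -0.55 and 0.82.

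The upstream sequences of the called genes are shown because these transcripts moved the same way between the gates and their products act in 1 pathway. They are the 150 bases before the annotated start, read 5' to 3' on the strand of the gene, from RefSeq on GRCm38.p6, for the 4 called genes with an entry. The stretches lie at chr3:121291590-121291739 (plus strand, Alg14), chr16:20610762-20610911 (minus strand, Alg3), chr6:88084323-88084472 (plus strand, Rpn1) and chr10:54075738-54075887 (minus strand, Man1a). Alg2 is named only. Capitals mark a CCAAT box, a CCACG box or a GC box (GGGCGG), each on either strand.
Alg14: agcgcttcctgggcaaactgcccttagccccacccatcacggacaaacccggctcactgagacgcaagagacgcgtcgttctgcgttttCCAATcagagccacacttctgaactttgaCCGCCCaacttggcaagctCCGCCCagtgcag
Alg3: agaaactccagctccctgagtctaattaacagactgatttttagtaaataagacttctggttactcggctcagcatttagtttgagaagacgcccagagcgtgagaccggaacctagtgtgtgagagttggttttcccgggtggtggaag
Rpn1: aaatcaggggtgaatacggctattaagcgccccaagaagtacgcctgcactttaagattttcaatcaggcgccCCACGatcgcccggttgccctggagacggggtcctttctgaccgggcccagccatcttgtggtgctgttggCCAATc
Man1a: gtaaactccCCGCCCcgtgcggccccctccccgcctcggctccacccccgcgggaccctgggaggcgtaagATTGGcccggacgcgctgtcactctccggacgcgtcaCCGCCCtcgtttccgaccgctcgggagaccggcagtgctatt
Alg14 and Man1a each held 1 CCAAT box and 2 GC boxes in this stretch, Rpn1 held 1 CCAAT box and 1 CCACG box, and Alg3 held none of them. The CCAAT and CCACG boxes of Rpn1 stood in the opposite order to, and much farther apart than in, the ER stress element, in which CCAAT is followed after 9 bases by CCACG. These matches describe letters and show no binding.

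Promoter windows were available for 34 of the 41 genes, 37 windows in all, because some genes have several starts. The complete ER stress element lay in 1 of the 37 windows of 250 bases before to 50 bases after the start (2.70%, Alg12), against 0.119% of 32851 windows in the table. The core of the XBP1 element, ACGTGG, which overlaps the CCACG box on the other strand, lay in 3 (8.11%, Alg6, Dolk and Ganab), against 8.31%. Within the 250 bases before the start, CCAAT was found in 40.5% of the windows against 33.8%, CCACG in 29.7% against 28.3%, and GGGCGG in 62.2% against 32.7%. The windows of the N-glycosylation genes had a median GC content of 61.0%, against 52.7% in the table, so their base composition differs from that of the promoters they are set beside.

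The earliest steps supply mannose. Mpi, Pmm1 and Pmm2 convert sugar phosphates into mannose phosphates, and Gmppa and Gmppb form the enzyme that makes GDP-mannose. None of these 5 genes passed the test between Ly6C low and high, and their median log2 difference was 0.0033. Mpi had log2 intensities of 6.99, 6.27 and 5.94 in Ly6C low, 6.02, 6.02 and 5.55 in medium and 6.02, 6.02 and 5.35 in high. Its gates overlapped, with low array 1 alone well above the other 8 arrays. The log2 difference of Mpi, low minus high, was 0.60 (95% interval -0.04 to 1.25, limma adjusted p = 0.323). Pmm2, the main phosphomannomutase of N-glycosylation, had 7.29, 7.50 and 7.97 in Ly6C low, 7.09, 7.31 and 7.29 in medium and 7.22, 6.93 and 7.13 in high. All low arrays of Pmm2 exceeded the high ones, by a mean of 0.49 (95% interval 0.10 to 0.88, limma adjusted p = 0.157). Pmm1, Gmppa and Gmppb had log2 differences of -0.27, 0.0033 and -0.21, with arrays of both gates overlapping.

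Of the 7 genes that handle dolichol and its sugar phosphates, none passed the test between Ly6C low and high. A positive difference was found for 6 (85.7%, beside 52.7% of all genes), with a median over the 7 of 0.20. Alg5 makes the dolichol-linked glucose that later caps the oligosaccharide. Its log2 intensities were 8.91, 8.74 and 9.12 in Ly6C low, 8.07, 8.60 and 8.30 in medium and 8.65, 7.78 and 7.90 in high. The low arrays were the 3 highest, and high array 1 stood apart from the other high arrays. The log2 difference of Alg5, low minus high, was 0.82 (95% interval 0.29 to 1.34, limma adjusted p = 0.0857). Without high array 1 it was 1.08 (adjusted p = 0.0159), and without any 1 of the other 8 arrays it was 0.65 to 0.91 (adjusted p = 0.0962 to 0.235). Dolpp1, which recycles the dolichol carrier after transfer, had 6.74, 6.87 and 6.45 in Ly6C low, 5.60, 5.85 and 5.81 in medium and 6.65, 5.76 and 5.96 in high. High array 1 lay among the low arrays of Dolpp1, whereas the other high arrays lay among or near the medium ones. The log2 difference of Dolpp1, low minus high, was 0.56 (95% interval 0.07 to 1.06, limma adjusted p = 0.205). Without high array 1 it was 0.83 (adjusted p = 0.0262), and without any 1 of the other 8 arrays it was 0.38 to 0.68 (adjusted p = 0.176 to 0.458). Dolk, the kinase that activates dolichol, Dpm1, Dpm2 and Dpm3, which form the dolichol-phosphate mannose synthase, and Mpdu1, needed to use dolichol-linked sugars, had differences of -0.26 to 0.31.

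The 12 genes of lipid-linked oligosaccharide assembly held 3 of the 5 calls, all of them higher in Ly6C low, beside 3.35% of all genes called higher. Between Ly6C low and high, 11 of the 12 had a positive difference (91.7%, beside 52.7% of all genes), with a median over the 12 of 0.58. The sequence of enzymes starts with Dpagt1, which places the first N-acetylglucosamine on dolichol and is the target of tunicamycin. Dpagt1 is described here after its values were seen, because it lay just outside the threshold. Its log2 intensities were 9.04, 9.29 and 9.22 in Ly6C low, 8.71, 8.54 and 8.30 in medium and 8.53, 8.84 and 8.51 in high. The low arrays lay above all others, while medium and high overlapped. The log2 difference of Dpagt1, low minus high, was 0.56 (95% interval 0.24 to 0.88, limma adjusted p = 0.0544).

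Alg14 anchors the enzyme that adds the second N-acetylglucosamine to the ER membrane. It had log2 intensities of 6.99, 7.01 and 6.30 in Ly6C low, 6.11, 5.92 and 6.12 in medium and 5.83, 5.10 and 5.37 in high. No gate overlapped another, with medium between low and high. Alg14 was 2.53-fold higher in Ly6C low than in high (log2 difference 1.34 ± 0.23 SE, limma adjusted p = 0.0117). Without low array 1 the difference was 1.23 (adjusted p = 0.0517), and with only the 2 gates in the fit the adjusted p was 0.0551. Its partner Alg13, which holds the catalytic site, had a log2 difference of 0.12 with overlapping arrays (95% interval -0.19 to 0.43).

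Alg2 adds a pair of mannoses to the growing chain on the cytosolic face. Its log2 intensities were 5.88, 6.05 and 5.86 in Ly6C low, 5.25, 5.29 and 5.28 in medium and 5.25, 4.97 and 4.89 in high. The low arrays stood clear of the others by more than the spread within any gate. Alg2 was 1.85-fold higher in Ly6C low than in high (log2 difference 0.89 ± 0.11 SE, limma adjusted p = 0.00313), and it passed the test without any 1 of the 9 arrays. Its neighbours in the chain did not pass: Alg1, which adds the first mannose, had a difference of 0.11 (95% interval -0.77 to 0.98), and Alg11, which adds the last cytosolic mannoses, had 0.0029 (-0.33 to 0.34).

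Alg3 adds the first mannose on the lumenal face. It had log2 intensities of 8.27, 7.88 and 7.82 in Ly6C low, 7.27, 7.33 and 6.94 in medium and 7.03, 6.88 and 5.88 in high. The low arrays lay above all others, and high array 3 lay far below the rest of its gate. Alg3 was 2.62-fold higher in Ly6C low than in high (log2 difference 1.39 ± 0.28 SE, limma adjusted p = 0.0230). The adjusted p was 0.0893 without low array 1, 0.0655 without low array 2 and 0.0776 with only the 2 gates in the fit. Alg9 and Alg12, which add the remaining lumenal mannoses, had differences of -0.07 (95% interval -0.28 to 0.14) and 0.24 (-0.42 to 0.90).

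The last assembly steps add the glucoses, by Alg6, Alg8 and Alg10b in that order. Their log2 differences, low minus high, were 0.99, 1.21 and 0.60, and none passed the test (limma adjusted p = 0.158, 0.132 and 0.470). These are among the widest intervals of the list: 0.21 to 1.77 for Alg6, 0.31 to 2.11 for Alg8 and -0.22 to 1.43 for Alg10b. Alg6 was dim, at 5.10, 3.70 and 3.78 in Ly6C low and 2.98 to 3.60 in high. Low array 1 lay far above the other low arrays of Alg6.

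**Figure D2:**
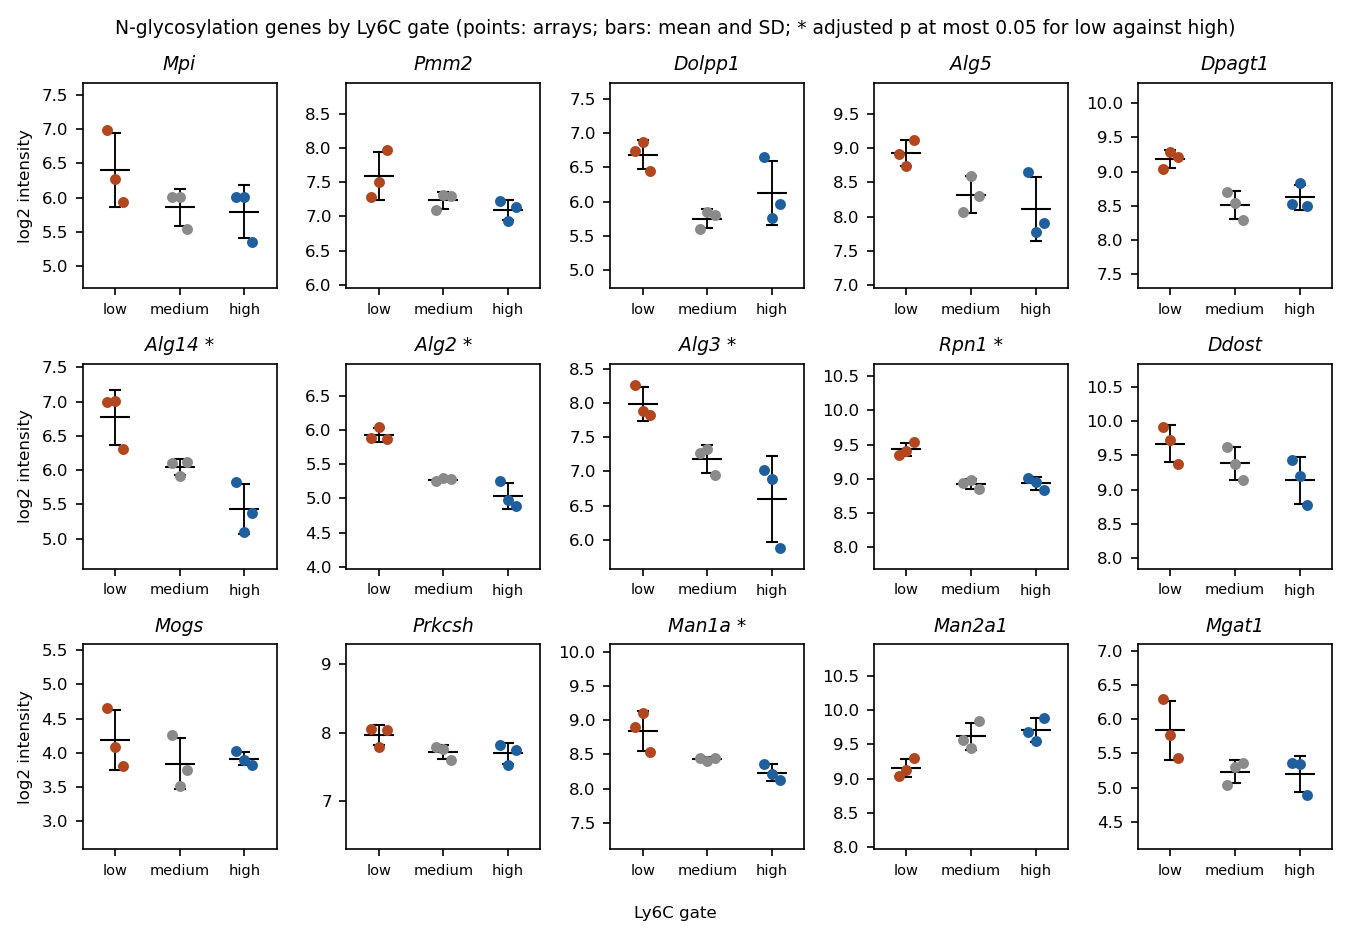
Log2 intensity on each array (points) with the gate mean and SD (bars), in Ly6C low, medium and high, for 15 N-glycosylation genes in pathway order. Each panel has its own axis, and an asterisk marks the 5 genes with an adjusted p of at most 0.05 for low against high. The low arrays of Alg14, Alg2, Alg3, Rpn1 and Man1a lie above all medium and high arrays, and those of Man2a1 lie below.

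The oligosaccharyltransferase moves the finished oligosaccharide to the protein. Of 8 measured subunits, 1 was called higher in Ly6C low than in high (beside 3.35% of all genes) and 0 were called lower (beside 2.32%). The differences were positive for 6 and negative for 2, with a median of 0.15. Rpn1, ribophorin I, which helps bring substrate proteins to the enzyme, had log2 intensities of 9.36, 9.41 and 9.54 in Ly6C low, 8.95, 8.99 and 8.85 in medium and 9.02, 8.96 and 8.84 in high. Medium and high were alike in range, and all low arrays lay above both. Rpn1 was 1.41-fold higher in Ly6C low than in high (log2 difference 0.50 ± 0.10 SE, limma adjusted p = 0.0209). The adjusted p was 0.0558 without high array 2, 0.0720 without high array 3, 0.0628 without low array 2, 0.0530 without low array 3 and 0.0551 with only the 2 gates in the fit, with differences of 0.45 to 0.51.

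Ddost, a subunit that stabilises the complex, had log2 intensities of 9.91, 9.72 and 9.38 in Ly6C low, 9.63, 9.38 and 9.15 in medium and 9.44, 9.19 and 8.77 in high. Its gates overlapped in steps, each gate spreading over more than the distance to the next. The log2 difference of Ddost, low minus high, was 0.54 (95% interval 0.07 to 1.00, limma adjusted p = 0.203, and 0.0209 with the replicate number as a block). Both catalytic subunits had small differences. Stt3a, which acts during translocation, was at 0.16 (95% interval -0.11 to 0.43), and Stt3b, which acts on sites that were skipped, was at -0.14 (-0.35 to 0.07). Rpn2, Dad1, Tusc3 and Ostc, the other subunits listed, lay between -0.10 and 0.16, with overlapping arrays.

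After transfer, Mogs removes the first glucose, the Ganab and Prkcsh proteins form glucosidase II, which removes the others, and Uggt1 puts a glucose back on proteins that are not yet folded. None of these 4 genes passed the test between Ly6C low and high. All 4 differences were positive, between 0.02 and 0.27. Mogs had log2 intensities of 4.66, 4.09 and 3.81 in Ly6C low, 4.26, 3.52 and 3.75 in medium and 4.02, 3.90 and 3.83 in high. It was dim, and its gates overlapped (difference 0.27, 95% interval -0.26 to 0.81, limma adjusted p = 0.666). Prkcsh had 8.06, 7.80 and 8.04 in Ly6C low, 7.80, 7.77 and 7.60 in medium and 7.82, 7.53 and 7.74 in high. Low array 2 of Prkcsh lay within the range of the high arrays (difference 0.26, 95% interval -0.01 to 0.54, limma adjusted p = 0.297). Uggt1 had all low arrays, at 7.30 to 7.40, above the high arrays, at 7.06 to 7.16 (limma adjusted p = 0.232).

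In the Golgi, 1 of 5 genes was called higher in Ly6C low than in high (beside 3.35% of all genes) and 0 were called lower (beside 2.32%). The differences were positive for 2 and negative for 3, with a median of -0.08. Man1a trims mannoses before branching begins. It had log2 intensities of 8.90, 9.10 and 8.53 in Ly6C low, 8.45, 8.40 and 8.45 in medium and 8.36, 8.21 and 8.12 in high. The gates did not overlap, though low array 3 lay close to the medium arrays. Man1a was 1.52-fold higher in Ly6C low than in high (log2 difference 0.61 ± 0.14 SE, limma adjusted p = 0.0433). This call was the least stable of the 5. It was kept without low array 3 (adjusted p = 0.0102), and without any 1 of the other 8 arrays its adjusted p was 0.0619 to 0.135. It was also lost with each array centred on its median (0.0588), with a trended and robust prior (0.0508) and with only the 2 gates in the fit (0.116). Its paralogue Man1a2 had a difference of -0.13 with overlapping arrays (95% interval -0.48 to 0.22).

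Mgat1 adds the N-acetylglucosamine that starts the first branch. It had log2 intensities of 6.30, 5.77 and 5.43 in Ly6C low, 5.04, 5.30 and 5.36 in medium and 5.36, 5.35 and 4.90 in high. The low arrays were the highest but spread widely (difference 0.63, 95% interval 0.13 to 1.13, limma adjusted p = 0.157). Man2a1, which removes mannoses after Mgat1 has acted, is described here after its values were seen. It had 9.04, 9.13 and 9.30 in Ly6C low, 9.57, 9.45 and 9.84 in medium and 9.68, 9.56 and 9.89 in high. It was the 1 member with every low array below every high array. Its log2 difference, low minus high, was -0.55 (95% interval -0.86 to -0.24, limma adjusted p = 0.0510). Mgat2, which starts the second branch, had a difference of -0.08 (95% interval -0.33 to 0.18).

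Ly6C medium cells were set against Ly6C high cells to place the gate between the others. Of the 41 genes, 0 were called in either direction by limma, against 0.239% of all genes tested. At an unadjusted p under 0.05, 1 was higher (Alg14; 3.72% of all genes) and 1 was lower (Pmm1; 3.81% of all genes). Every medium array lay above every high array for 2 genes, Alg14 and Man1a (5.77% of all genes), and below for 1, Uggt1 (4.93% of all genes). The median difference was -0.0029, beside 0.029 for all genes. The log2 difference of Alg14, medium minus high, was 0.61 (95% interval 0.10 to 1.13, limma adjusted p = 0.542). That of Alg2 was 0.24 (-0.02 to 0.50), that of Alg3 was 0.58 (-0.05 to 1.22) and that of Rpn1 was -0.01 (-0.23 to 0.21).

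Ly6C low cells were then set against Ly6C medium cells. Of the 41 genes, 2 were called higher in low (4.88%, against 1.38% of all genes) while 0 were called lower (against 0.541%). By the unadjusted p, under 0.05, 13 were higher (31.7%, against 8.54% of all genes) and 1 was lower (against 5.53%). Every low array lay above every medium array for 14 genes (34.1%, against 9.25%) and below for 1, Man2a1 (against 7.58%). The median difference was 0.26, beside -0.017 for all genes. This comparison shares the low arrays with that of low and high, and its values are not independent of it.

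The called genes were Alg2 and Rpn1. Alg2 was 1.57-fold higher in Ly6C low than in medium (log2 difference 0.65 ± 0.11 SE, limma adjusted p = 0.0271). Without 1 array its adjusted p was 0.0813 (low 1), 0.0980 (low 2), 0.0845 (medium 1), 0.0719 (medium 2) or 0.0970 (medium 3). Rpn1 was 1.42-fold higher in Ly6C low than in medium (log2 difference 0.51 ± 0.10 SE, limma adjusted p = 0.0385), and it was kept without high array 3 (0.0469). Without any 1 of the other 8 arrays its adjusted p was 0.0523 to 0.140. The Rpn1 call was also lost with only the 2 gates in the fit (0.0729), with the replicate block (0.0633) and with a trended and robust prior (0.0514), and the last of these ended the Alg2 call too (0.0560). Just outside the threshold were Dpagt1, with a log2 difference, low minus medium, of 0.67 (adjusted p = 0.0520), Uggt1 with 0.44 (0.0622) and Dolpp1 with 0.94 (0.0731), which are named after their values were seen.

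**Figure D3:**
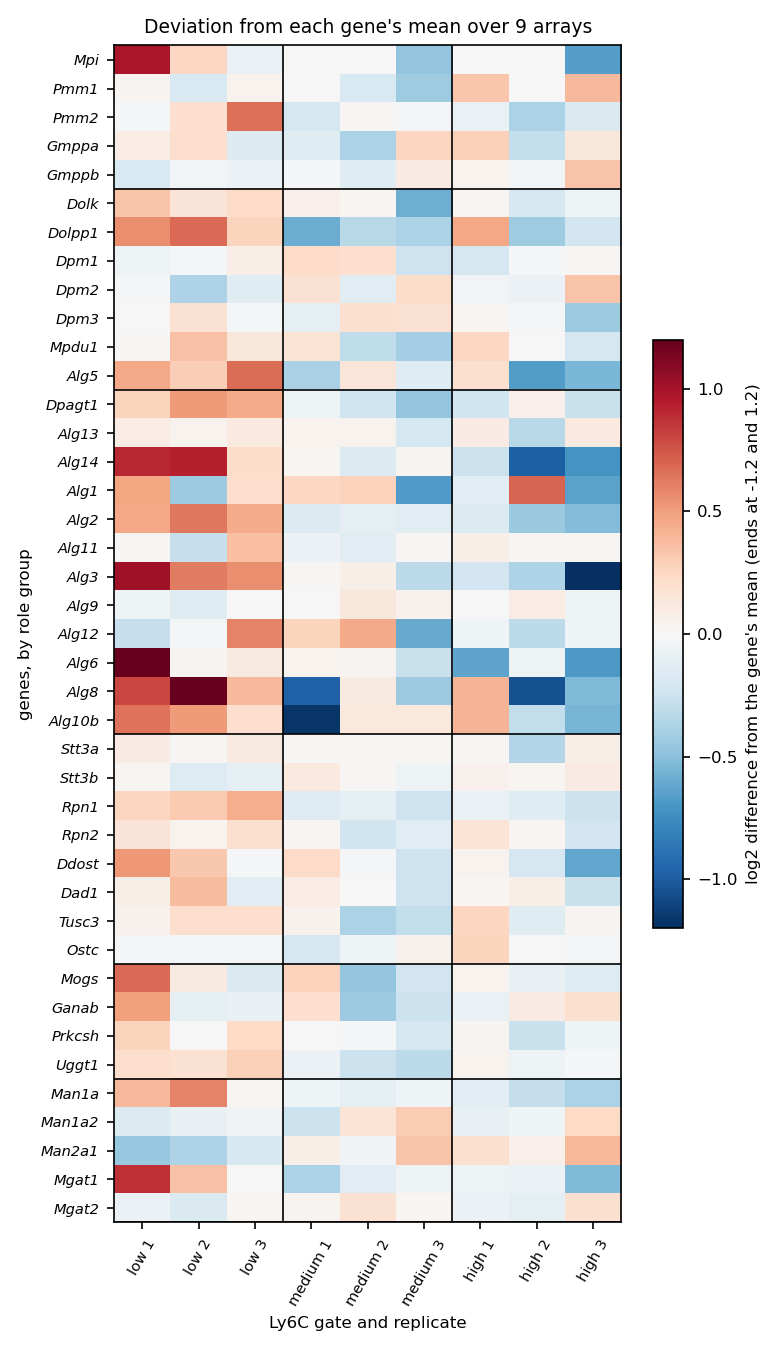
Log2 deviation of each of the 41 N-glycosylation genes (rows, by role group) from its mean over the 9 arrays (columns, Ly6C low, medium and high). Red is above and blue below the mean, with colours ending at -1.2 and 1.2. The median deviation over the 41 genes was 0.11 to 0.16 on the low arrays, -0.20 to 0.0013 on the medium arrays and -0.15 to 0.02 on the high arrays.

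Genes beside the 41 in the pathway were read in the same limma fit of Ly6C low against high. In that fit 3.35% of all genes were called higher and 2.32% lower. Of 7 measured genes of dolichol supply and further oligosaccharyltransferase subunits, 0 were called, and the median difference was 0.07. Of 11 measured genes of sugar nucleotide supply, 3 were called higher and 2 lower. Gfpt2, an enzyme of the rate-limiting step towards UDP-N-acetylglucosamine, had log2 intensities of 3.57, 4.22 and 4.39 in Ly6C low, 4.41 to 4.52 in medium and 7.89, 7.21 and 6.66 in high. The low arrays lay near the array medians of 4.16 to 4.30, so the size of the fold rests on dim values. Relative to Ly6C high, it was 9.17-fold lower in Ly6C low (limma adjusted p = 0.000959). It was also 6.93-fold lower in medium (limma adjusted p = 0.0176). Its paralogue Gfpt1 was called in the other direction, 1.39-fold higher in Ly6C low than in high (adjusted p = 0.0271). Uap1l1, a relative of the UDP-N-acetylglucosamine pyrophosphorylase, was called at 2.19-fold higher (limma adjusted p = 0.00787). Nagk, the kinase that salvages N-acetylglucosamine, was called at 1.97-fold higher (limma adjusted p = 0.0374). Gfpt1 and Ugp2, which was called lower, are named here after their values were seen.

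Of 16 further genes of Golgi processing and capping, 2 were called higher and 1 lower in Ly6C low than in high. St6gal1, which caps glycans with sialic acid, had 8.34, 7.93 and 7.56 in Ly6C low, 6.96 to 7.52 in medium and 6.51, 6.54 and 5.82 in high, which is a 3.14-fold increase over high (limma adjusted p = 0.00789). Man1c1, a mannosidase related to Man1a, was 1.95-fold higher (adjusted p = 0.0154). St3gal4, a sialyltransferase of another linkage, was 1.78-fold lower (adjusted p = 0.0225). Of 15 genes of lectin chaperones and quality control, 1 was called, Edem1, which marks misfolded glycoproteins for removal, at 1.49-fold lower (adjusted p = 0.0110). The translocon and signal peptidase list, 15 genes that act beside the oligosaccharyltransferase, had 0 calls and a median difference of 0.0017. The unfolded protein response list had 1 call of 14 measured genes, Ern1, a sensor of ER stress, at 1.52-fold lower (adjusted p = 0.0432), and a median difference of -0.26. Differences in this list were negative for 11 genes and positive for 3. Hspa5, the ER chaperone BiP, was not called and is named in addition to the called gene. It had 10.88, 10.94 and 10.90 in Ly6C low and 11.22, 11.19 and 11.25 in high (limma adjusted p = 0.0631).

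**Figure D4:**
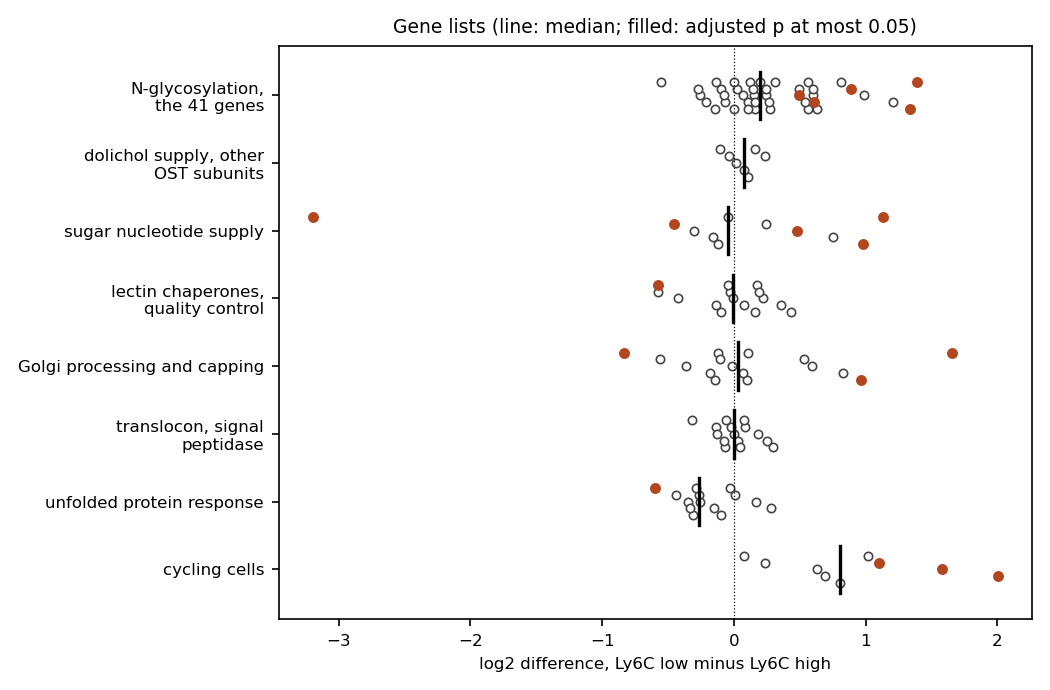
Log2 difference, Ly6C low minus Ly6C high, of each gene of the 41-gene N-glycosylation list and of 7 other lists, with the median as a line. Filled points have an adjusted p of at most 0.05. The 41 genes have a median of 0.20, the translocon list 0.0017, the unfolded protein response list -0.26 and the cycling list 0.81.

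Markers of several cell types moved with the gates. Of 11 fibroblast markers, 11 were called lower in Ly6C low than in high and 8 were called lower in medium than in high. Their summed level (log2 of the sum of their intensities) was 8.99 to 9.10 in low, 9.74 to 9.77 in medium and 11.7 to 12.9 in high. The order of the high arrays in Gfpt2 was that of Col1a1, a collagen gene, at 9.55, 8.71 and 8.03, and the part of fibroblast RNA in the Gfpt2 difference was not tested. Of 11 tissue macrophage markers, 10 were called higher in Ly6C low than in high. Their summed level was 13.7 to 13.9 in low, 12.52 to 12.97 in medium and 11.8 to 12.5 in high. Of 8 measured dendritic cell markers, 5 were called higher in low than in high. These 5 were Ccl17, Ccl22, Ccr7, Cd207 and Flt3, at 3.09-fold to 24.5-fold higher. The summed level of the 8 was 11.0 to 11.5 in low, 8.32 to 8.55 in medium and 7.57 to 8.44 in high. Xcr1, a marker of cross-presenting dendritic cells, had the 1 negative difference, -0.48 (limma adjusted p = 0.402).

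Of 9 measured cycling-cell genes, 3 were called higher in Ly6C low than in high (Mcm3, Mcm6 and Top2a). All 9 differences were positive, beside 52.7% of all genes. The summed level was 10.6 to 10.9 in low, 10.3 to 10.4 in medium and 10.2 to 10.3 in high. The plasma cell list, whose cells are rich in glycosylation enzymes, had 2 of 6 markers called higher in low than in high (Irf4, 3.91-fold, and Tnfrsf17, 3.15-fold) and 2 called lower (Sdc1 and Prdm1). Its summed level was 9.08 to 9.25 in low, 9.66 to 9.96 in medium and 9.59 to 9.82 in high. Its defining gene Jchain was below the array median on every array. Of the other lists, 6 of 8 measured classical monocyte markers and 1 of 5 endothelial markers were called lower in low than in high. Called higher were 2 of 6 natural killer cell, 2 of 5 eosinophil, 1 of 6 mast cell and 1 of 5 keratinocyte markers. The natural killer cell sum was 8.51 to 9.15 in low and 6.85 to 7.28 in high. The 2 natural killer cell markers called higher were Klrd1 and Klrk1. Its other markers, Ncr1, Klrb1c, Eomes and Gzma, had differences of -0.19 to -0.09 and were above the array median on 0 arrays. The neutrophil sum was 9.04 to 11.3 in low, 9.81 to 11.1 in medium and 9.41 to 10.2 in high. Its markers were split: 2 of 6 were called lower in low than in high, and 4 had positive differences, with 0 called. The 2 were Mmp8 (6.89-fold, limma adjusted p = 0.00222) and Csf3r (2.19-fold, limma adjusted p = 0.0269). Without low array 3, 4 of the 41 N-glycosylation genes were called between Ly6C low and high, and Rpn1 was not among them, while 1243 of all genes were called, beside 1258 with it. The part of fibroblast, macrophage, dendritic, plasma, natural killer and cycling cells in the N-glycosylation differences was not tested.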

How the data were processed

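Transcripts were measured on 9 Affymetrix arrays, 3 for each Ly6C gate, from RNA amplified before hybridization, per the labels. The deposited values are log2 intensities from RMA, per the submitters' processing notes (RMA corrects background, normalizes by quantiles and summarizes probes). They were used as deposited. The genome build of the arrays was not given in any source used here. Of 41345 probe sets, 23521 had 1 gene symbol, 1814 had several and 16010 had none. A gene was read from its single-symbol probe set with the highest mean.

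The 22180 genes were fitted with limma 3.58.1 in R 4.3.3 (lmFit and eBayes, all arrays in 1 fit, 6 residual degrees of freedom, two-sided, Benjamini-Hochberg over all genes, threshold 0.05). The 41 genes, the other lists and the tests were chosen with earlier results of these data known. Values on every array are given for members called in any comparison and for the 2 with the largest low minus high difference of each role group. Of other lists, up to 3 called genes are given, and Gfpt1, Ugp2 and Hspa5 were added to them. The search for single promoter boxes was added after the complete element was seen to be rare. Alternatives were repeated quantile normalization, centring, the mean of probe sets, filters on dim genes, the replicate block, another prior, array weights, a fit of 2 gates, and leaving out each array. The fit was tested on simulated data.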

Additional observations from a re-analysis of the deposited data

How the results depend on the processing

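Of 108 alternative values of the 3 counts of called members and the 3 median differences, 92 stayed within 1.5 times the count or within the spread of the arrays, and 0 called values changed sign. The median difference between medium and high, which has no test, had either sign (-0.05 to 0.04). Between Ly6C low and high, 5 members were called (1258 of all genes), 1 with only those gates in the fit (644 genes), and 2 to 7 on leaving out 1 array; the count was 2 without low array 1 or low array 2 (596 and 649 genes) and 3 without high array 3 (781 genes). Between low and medium, 2 were called (427 genes). The count was 4 with array weights (601 genes), with centred arrays (443 genes) and with the filter at the array median (601 genes), 1 with the replicate block (629 genes) and 0 with a trended and robust prior (346 genes). It was 0 to 2 on leaving out 1 array: 0 without low array 1, low array 2 or any medium array (119 to 223 genes), and 1 without high array 2 or low array 3 (339 and 522 genes). With only the 2 gates in the fit, 2 members and 211 of all genes were called. Between medium and high, 0 members were called under every alternative (53 genes, and 1 to 72 under the alternatives). Deviations of same-numbered arrays from their gate means correlated at -0.02 to 0.31, against -0.18 to 0.15 for differently numbered arrays. In every gate the median deviation of the 41 genes was highest on replicate 1 and lowest on replicate 3. The replicate numbers were not taken as pairs in the main fit, and a shared effect of the replicate number was not tested. The replicate block gave 7 members between low and high (1564 of all genes), Ddost among them (limma adjusted p = 0.0209). Under 5 alternatives, leave-outs aside, each of Dpagt1 (adjusted p at lowest 0.0320) and Man2a1 (0.0207) passed between low and high. Alg2 did not reach a log2 value of 6 on 3 arrays and was left out by that filter. Causes of these changes were not tested. No measure of background was used, so what signal over background limits was not tested.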

Other observations

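Exact repeats of a value between arrays were frequent in the deposited table. Of the 41 N-glycosylation genes, 17 (41.5%) had the same log2 value on more than 1 array, against 51.5% of all genes tested. Ostc had 9.07 on 4 arrays, and Mpi had 6.02 on 4 arrays, all of them medium or high. Stt3a, Alg9, Alg11 and Alg13 each had a value repeated on 3 arrays. Of the 5 genes called between Ly6C low and high, Man1a had a repeated value (8.45, on 2 medium arrays).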
